A study of Mus musculus with 23 samples.

Results

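Papillomas, the benign outgrowths of chemically induced mouse skin tumours, were compared between bigenic mice, which can switch on a TGF-beta transgene in the epidermis, and monogenic mice, which cannot. All 14 arrays titled papilloma were used, of 23 in the series. The bigenic mice are labelled K5rTA tetOTGFbeta and the monogenic mice K5rTA, so both carry a transactivator driven by the keratin 5 promoter, active in basal keratinocytes, and only the bigenic mice carry the responder. All were FVB mice, labelled as 7 to 12 weeks old. The labelled protocol was 100 µg of the carcinogen DMBA in 200 µl acetone and, from 1 week later, 5 µg of the tumour promoter TPA 2 times a week for 20 weeks. Per the labels, papillomas were taken at weeks 12 to 14, after both genotypes had eaten chow with doxycycline at 1 g/kg for 48 h following a 3 h fast. The full 20 weeks of TPA need not have been given by then. The chow, the carcinogen and the transactivator were thus common to both sides of every array.

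Each array held 1 bigenic and 1 monogenic papilloma, coupled to different dyes. The arrays covered 8 bigenic tumours (2145C, 1762D, 1961B, 1995B, 228A, 228B, 228C and 1684B) and 7 monogenic tumours (2000D, 2000E, 2000F, 2000H, 2000J, 257B and 257CE) in 11 pairs of extracts. The bigenic tumour was in Cy3 on 11 arrays and in Cy5 on 3, and 3 pairs (228A/257B, 228B/257CE and 1684B/257B, written bigenic first) were hybridised in both orientations. Tumours recurred, so the 11 pairs formed 4 linked groups, of which the largest held 7 pairs. The labels do not say whether tumours that share a number, such as 228A and 228B, came from 1 animal, so p-values here measure the spread between tumour pairs.

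TGF-beta binds paired type I and type II receptors, which phosphorylate Smad2 and Smad3, and these enter the nucleus with Smad4. In keratinocytes the pathway is known as a brake on proliferation, while in tumour tissue it is also known for effects on matrix, proteases and immune cells. Smad7 and Skil are textbook feedback inhibitors that the pathway itself induces.

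Every value below is a log2 ratio with a side rather than a direction, because which dye stands in the numerator is not given in the sources used here. If the ratio is Cy5 over Cy3, the positive side is more RNA in the bigenic tumour. If it is Cy3 over Cy5, the positive side is less. Only ratios were used here, so the level of a keratinocyte or other marker, and with it the tissue label, could not be checked. In whole tumours, fewer cells of a type and less RNA per cell cannot be told apart.

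The arrays differed in quality. An array held values for 6729 to 9573 of 9596 probes (median 8733.5), its deposited median ran from -0.34 to 0.01 and the SD of its ratios from 0.29 to 1.20. The lowest median and the widest SD were those of papilloma 2 (1762D/257B). The labels' experiment numbers fall into 3 ranges of 5, 4 and 5 arrays. In the first, papilloma 10 to 14, all 5 arrays had the bigenic tumour in Cy3 and a monogenic tumour numbered 2000. Of the 6 pairs with a 2000 tumour, 228A/2000E lay in another range, and all 5 pairs with a 257 tumour did. Range, monogenic number and dye are therefore largely confounded. Precision is limited by how few arrays there are.

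Across 6490 genes measured in at least 8 pairs, 5 passed a Benjamini-Hochberg adjusted p of 0.05 (limma over the 11 pairs), which is 0.077% of those tested. The 3 on the negative side (0.0462%) were Gstm1, a glutathione S-transferase of the mu class that conjugates electrophiles, Cldn8, a tight junction claudin, and Cyp2s1, a cytochrome P450 of epithelia. The 2 on the positive side (0.0308%) were Nlrp10, an NLR family protein found in skin, and Sorcs2, a sorting receptor of the Vps10 family. The split of calls moved with the scaling of the arrays, to 22 positive and 18 negative with an equal spread of arrays, 23 and 18 with quantile normalization and 8 and 5 when arrays were not centred. The pairs share tumours, and with the bigenic tumour as a random block only the 3 negative genes passed, while with the bigenic tumour as the replicate 0 genes did (limma, 763 unadjusted). An unadjusted p under 0.05 was reached by 745 genes (11.5%), 373 positive (5.75%) and 372 negative (5.73%). Centring each array on its median holds the sides near even, so their balance is not a result. Over all tested genes 3500 lay on the positive and 2990 on the negative side, with a median of 0.02.

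**Figure D1:**
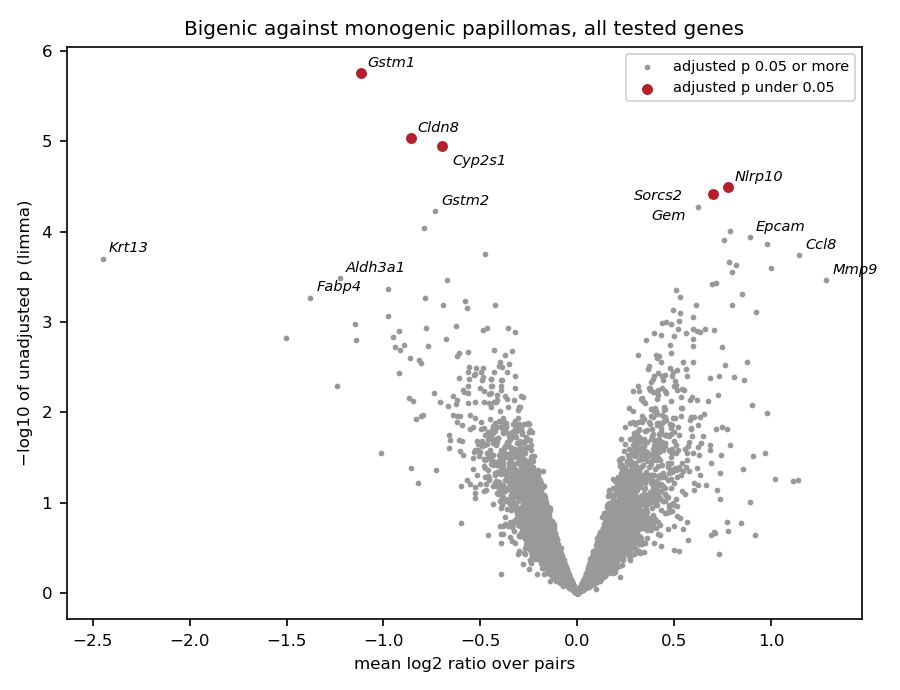
Each point is 1 of 6490 tested genes, with its mean log2 ratio over pairs on the x axis and −log10 of the unadjusted p (limma) on the y axis. The 5 red points passed an adjusted p of 0.05, with Gstm1 at the top left. Krt13 lies farthest out, at a mean of -2.45, and did not pass.

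The glutathione S-transferases Gstm1 and Gstm2, together with Cyp2s1, were negative in every pair that measured them, and their promoters are shown because these 3 detoxification genes were, in order of p, the first of their list. Gstm6 was negative in every pair too, and its 3 windows, which held none of the motifs searched, are not printed. The 250 bases before the start of each gene are from RefSeq on build GRCm38.p6, all on the minus strand, 5′ to 3′, and for Gstm1 both annotated starts are given, with windows that overlap. A search of both strands for TGACNNNGC, the core of the antioxidant response element, for TGACTCA, the AP-1 site that TPA-activated Fos and Jun bind, and for TATAAA found 1 match in the 4 windows, the TATAAA in capitals before the downstream start of Gstm1.
Gstm1 upstream start, chr3:108017974-108018223: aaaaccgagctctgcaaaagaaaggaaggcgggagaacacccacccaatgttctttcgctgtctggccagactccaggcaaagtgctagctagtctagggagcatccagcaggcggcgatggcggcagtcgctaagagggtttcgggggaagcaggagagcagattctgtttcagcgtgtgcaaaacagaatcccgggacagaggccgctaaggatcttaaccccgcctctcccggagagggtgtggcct
Gstm1 downstream start, chr3:108017819-108018068: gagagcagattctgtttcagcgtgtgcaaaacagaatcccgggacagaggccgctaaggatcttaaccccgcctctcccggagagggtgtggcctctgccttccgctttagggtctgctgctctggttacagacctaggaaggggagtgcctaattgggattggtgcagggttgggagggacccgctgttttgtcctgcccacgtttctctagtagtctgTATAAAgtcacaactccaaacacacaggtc
Gstm2, chr3:107986421-107986670: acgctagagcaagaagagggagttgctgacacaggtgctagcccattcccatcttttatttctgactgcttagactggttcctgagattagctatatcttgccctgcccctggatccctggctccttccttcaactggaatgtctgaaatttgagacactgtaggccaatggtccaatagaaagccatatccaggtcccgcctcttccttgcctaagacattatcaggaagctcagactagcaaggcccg
Cyp2s1, chr7:25816526-25816775: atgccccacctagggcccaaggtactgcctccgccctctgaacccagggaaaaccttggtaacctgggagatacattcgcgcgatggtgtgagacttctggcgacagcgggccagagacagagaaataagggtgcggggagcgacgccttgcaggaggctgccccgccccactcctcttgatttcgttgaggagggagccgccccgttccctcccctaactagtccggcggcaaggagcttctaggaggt
TGACNNNGC occurred in 10.16% of all 32851 windows of this length in the table, TGACTCA in 4.463% and TATAAA in 12.37%. In the 6599 windows of tested genes the shares were 11.37%, 3.682% and 8.516%. Of the 5 genes past the threshold, 2 had an entry in the table, and of the 41 tested oxidative and xenobiotic genes 35 did. Those 35 had 42 windows, of which 8 (19.05%) held TGACNNNGC, 5 (11.9%) TGACTCA and 9 (21.43%) TATAAA. A match is a description of letters and not a bound site, and a missing match says nothing of which factors act there.

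Gstm1 ranged from -1.98 in 1762D/257B to -0.58 in 1961B/2000H over 10 pairs, with a median of -0.88. All 10 pairs lay below 0 and the next highest value was -0.62, so no pair came near the other side. The fitted mean was -1.12 ± 0.144 (SE), with an adjusted p of 0.0114 (limma). In 228A/257B the 2 orientations gave -1.08 with the bigenic tumour in Cy3 and -1.05 with it in Cy5, and in 228B/257CE they gave -1.995 and -1.07.

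Cyp2s1 ran from -1.23 in 1762D/2000D to -0.20 in 228A/257B, with a median of -0.81, and was negative in 11 of 11 pairs. Its mean was -0.70 ± 0.109 (SE, adjusted p = 0.0246, limma). Cldn8 was negative in 10 of 11 pairs, with a median of -0.98 and a lowest value of -1.42 in 1762D/257B, and 228C/257CE stood at 0.03. Its mean was -0.86 ± 0.131 (adjusted p = 0.0246, limma). The orientations of Cldn8 differed in 228A/257B, where Cy3 gave 0.18 and Cy5 -2.51.

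Nlrp10 was positive in 9 of 11 pairs, from -0.04 in 228C/257CE and -0.01 in 1995B/2000J up to 1.36 in 1762D/2000D, with a median of 0.77. Its mean was 0.78 ± 0.134 (adjusted p = 0.0494, limma). Sorcs2 was positive in 10 of 11 pairs, with 228C/257CE at -0.05, a median of 0.64 and a highest value of 1.56 in 1762D/2000D. Its mean was 0.70 ± 0.122 (adjusted p = 0.0494, limma). Both lost their call with the bigenic tumour as a random block. The low value of both genes, and the high value of Cldn8, lay in the same pair, 228C/257CE.

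Leaving out 1 tumour at a time ended most of these calls. Tumours 1995B and 2000J were set only against each other, as were 1961B and 2000H. Leaving out either member of such a pair gave the same fit, so not all 15 fits are distinct and the counts below include repeats. Gstm1 passed in 10 of the 15 fits that left out a tumour, with a mean between -1.20 and -1.03 and an adjusted p of up to 0.113. Cldn8 passed in 4 (up to 0.131), Cyp2s1 in 2 (up to 0.131), and Nlrp10 and Sorcs2 in 1 each (up to 0.209, limma). The number of genes past the threshold was 0 without bigenic 228A, 228B or 2145C or monogenic 2000E or 257CE (limma, 861, 885, 666, 850 and 917 unadjusted). The signs of these 5 genes were the same in all 15 fits.

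Genes with the next smallest p filled out both sides without passing. On the negative side Gstm2 stood at -0.73 ± 0.133 (adjusted p = 0.0556, limma) and was negative in 11 of 11 pairs, from -2.16 to -0.43, and Gstm6, another mu-class transferase, at -0.67 ± 0.147 (0.102), also negative in 11 of 11. The probes of these related transferase genes may read each other's RNA, which was not tested, so Gstm1, Gstm2 and Gstm6 may not be independent readings. Gstm5, also of the mu class, lay on the other side at 0.30 ± 0.269 (0.703, limma), positive in 7 of 11 pairs and negative in 4. Klf5, a transcription factor of proliferating epithelium, stood at -0.79 ± 0.150 (0.0704), and Jarid2, a partner of Polycomb complexes, at -0.47 ± 0.096 (0.0851), negative in 11 of 11. Nucb2, the precursor of nesfatin, was negative in 11 of 11 pairs at -0.97 ± 0.218 (0.109), and Fabp4, a fatty acid carrier of adipocytes and macrophages, in 11 of 11 at -1.38 ± 0.316 (0.117). Serpinb2, which inhibits urokinase, stood at -0.79 ± 0.180 (0.117).

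Krt13, a keratin of internal stratified epithelia that is known to appear in skin papillomas, had the widest shift, with a mean of -2.45 ± 0.503 (adjusted p = 0.0865, limma). It ranged from -5.34 in 228B/257CE to 0.43 in 1684B/257B, with a median of -3.15. In 6 pairs it lay at or below -3.15 and in 3 between -0.82 and 0.43, so the pairs did not form 1 level. Those 3 were of bigenic tumours 1684B, 228A and 228C, and 228A stood at -4.47 when set against 2000E. In 228B/257CE the orientations gave -5.44 with the bigenic tumour in Cy3 and -5.24 with it in Cy5.

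On the positive side Gem, a small GTPase that restrains calcium channels and the cytoskeleton, was positive in 11 of 11 pairs at 0.62 ± 0.112 (adjusted p = 0.0556, limma). Epcam, an adhesion molecule of simple and proliferating epithelium, was positive in 11 of 11 at 0.89 ± 0.173, from 0.30 to 2.22, and Ppp1r14b, a phosphatase inhibitor, in 11 of 11 at 0.76 ± 0.148 (both 0.0734). St3gal4, a sialyltransferase, stood at 0.79 ± 0.151 (0.0704). Plau, the urokinase plasminogen activator, stood at 0.98 ± 0.194 (0.0734) and ranged from -0.35 in 228C/257CE to 2.45 in 1961B/2000H. Ccl8, a monocyte chemokine, stood at 1.14 ± 0.233 (0.0851), with 1762D/257B at -1.16 as its 1 negative pair of 11. Ndrg1, a stress and differentiation gene, was positive in 10 of 10 pairs at 0.80 ± 0.167 (0.0952) and the zinc finger gene Zfp710 in 10 of 10 at 0.82 ± 0.168 (0.0899). In each pair hybridised in both orientations, however, the arrays of Zfp710 had opposite signs before they were averaged. With the bigenic tumour in Cy5 first, they gave -0.427 and 1.884 in 1684B/257B and 0.179 and -0.06 in 228A/257B. In 228B/257CE they gave -0.488 and 0.621. With a dye term Zfp710 stood at 0.45 (adjusted p = 0.441, limma). Prl2c2 (proliferin) at 1.00 ± 0.211 (0.0924) and the serine protease Prss12 at 0.78 ± 0.162 (0.0872) completed the 12.

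**Figure D2:**
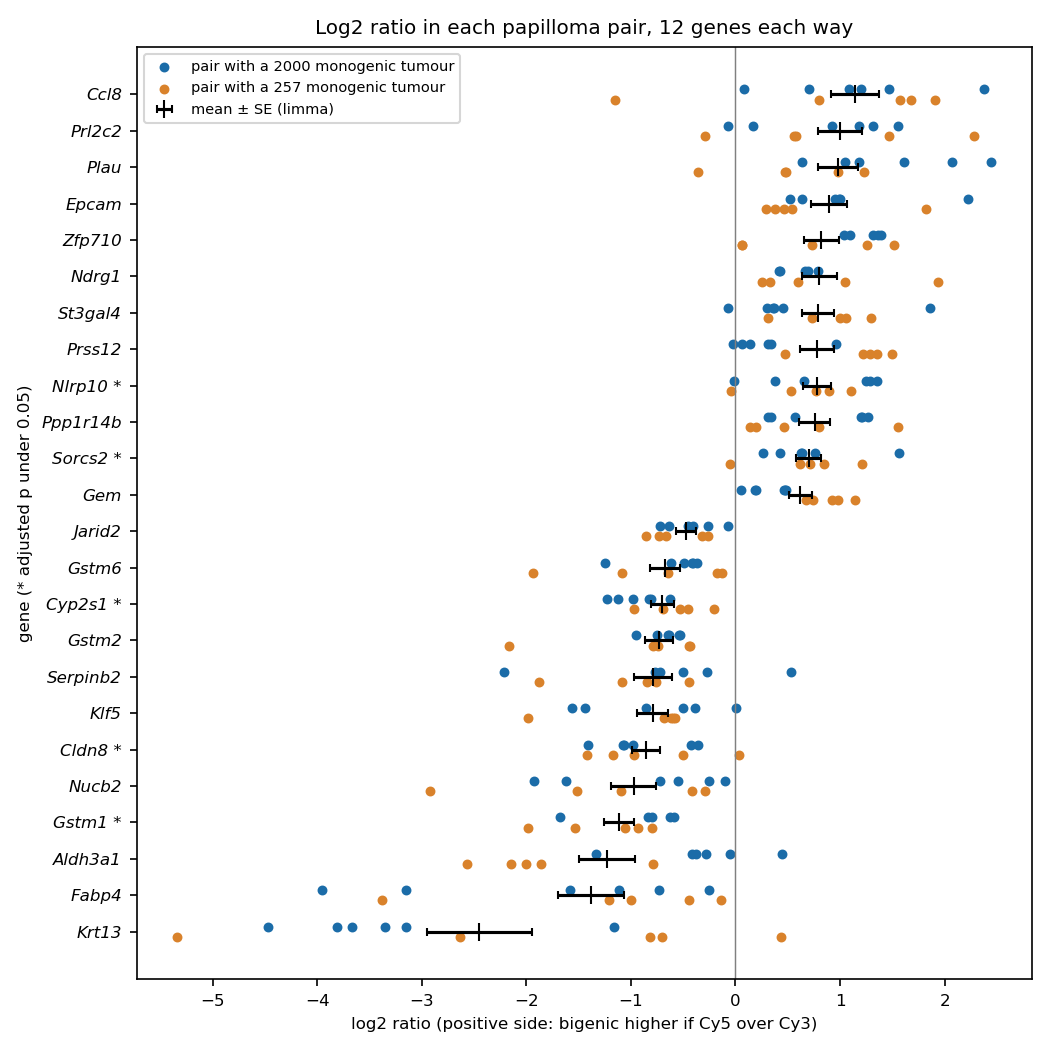
The x axis is the log2 ratio and the rows are the 12 genes of smallest p on each side, with 1 point per pair coloured by the number of the monogenic tumour and the mean ± SE (limma) in black. Asterisks mark the 5 genes with an adjusted p under 0.05. Gstm1, Gstm2, Gstm6, Cyp2s1, Jarid2, Nucb2 and Fabp4 have every point below 0 and Gem, Epcam, Ppp1r14b, Ndrg1 and Zfp710 every point above, while Krt13 spreads from -5.34 to 0.43.

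Among the genes with large mean ratios, Nt5e, the ecto-5′-nucleotidase that makes adenosine, stood at 0.92 ± 0.220 (adjusted p = 0.133, limma), with 9 of 11 pairs positive. Slc22a8, an organic anion transporter, had a mean of 1.11 ± 0.544 (0.448), but that mean rests on 228A/257B at 7.62 in an otherwise median value of 0.38. Gpld1, a phospholipase of membrane anchors, stood at -1.15 ± 0.284 (0.141) and its 2 probes disagreed, at -1.54 and 0.04.

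A same sign in every one of at least 10 measured pairs was reached by 51 of 5847 genes (0.872%), 26 positive (0.445%) and 25 negative (0.428%), and when arrays were not centred 38 were positive and 18 negative. The positive ones included Epcam, Gem, Ndrg1, Ppp1r14b, Zfp710 and Tap2, a peptide transporter for antigen presentation (0.27 ± 0.089, adjusted p = 0.272, limma). Arrays of a pair were averaged first, so Zfp710 counts here although its arrays of opposite orientation differed in sign. The negative ones included Cyp2s1, Gstm1, Gstm2, Gstm6, Fabp4, Jarid2 and Nucb2. Of the 5 genes past the threshold, Gstm1 and Cyp2s1 were of this kind and Cldn8, Nlrp10 and Sorcs2 were not.

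A dye term was then fitted to the 14 arrays, to estimate a dye effect of a gene beside its bigenic against monogenic ratio. The 3 arrays with the bigenic tumour in Cy5 were all of the third range and all held a 257 tumour. In this fit, too, dye is therefore largely confounded with range and monogenic number, and the ratios with a dye term lean on those 3 arrays. Of 5779 genes with at least 10 arrays and 2 in Cy5, 15 passed (0.26%), 11 positive (0.19%) and 4 negative (0.0692%, limma), and with an equal spread of arrays 31 positive and 30 negative did. The negative ones were Aldh3a1, an aldehyde dehydrogenase of stratified epithelium, at -1.60 ± 0.253 (adjusted p = 0.0160), Gstm1 at -1.07 ± 0.167 (0.0160), Cldn8 at -1.09 ± 0.191 (0.0191) and Cyp2s1 at -0.69 ± 0.136 (0.0315). The positive ones were Irf1, an interferon-induced transcription factor, at 0.71 ± 0.112 (0.0160), Prl2c2 at 1.31 ± 0.218 (0.0160), Sorcs2 at 0.82 ± 0.143 (0.0191), St3gal4, Nlrp10, Gem, Ccl8, Ndrg1, Prss12, Bhlhe40, a clock-linked repressor, and Dhrs3, a retinal reductase, which is named to complete the 11. All 5 genes that passed over the pairs thus passed here, on the same arrays. Epcam at 0.90 ± 0.204 (0.0974) and Ppp1r14b at 0.82 ± 0.170 (0.0525) kept their sides without passing, as did Krt13 at -2.24 ± 0.562 (0.158).

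No gene passed for the dye effect itself (0 of 5779, or 0%, limma, with 589 unadjusted, 10.2%), and its estimate rests on 3 arrays with the bigenic tumour in Cy5. After both orientations were turned the same way, the arrays of a pair correlated at Pearson's r = 0.35 for 1684B/257B, -0.01 for 228A/257B and 0.06 for 228B/257CE, over 6121, 5049 and 4604 genes, which are not independent replicates. Among genes past 2-fold on both arrays, 150 of 159, 39 of 68 and 31 of 47 lay on the same side. The arrays of a pair held the same extracts, yet across genes they agreed in part in 1684B/257B and hardly at all in 228A/257B and 228B/257CE. Where both arrays had a value, these pairs carried more weight in the mean over pairs.

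**Figure D3:**
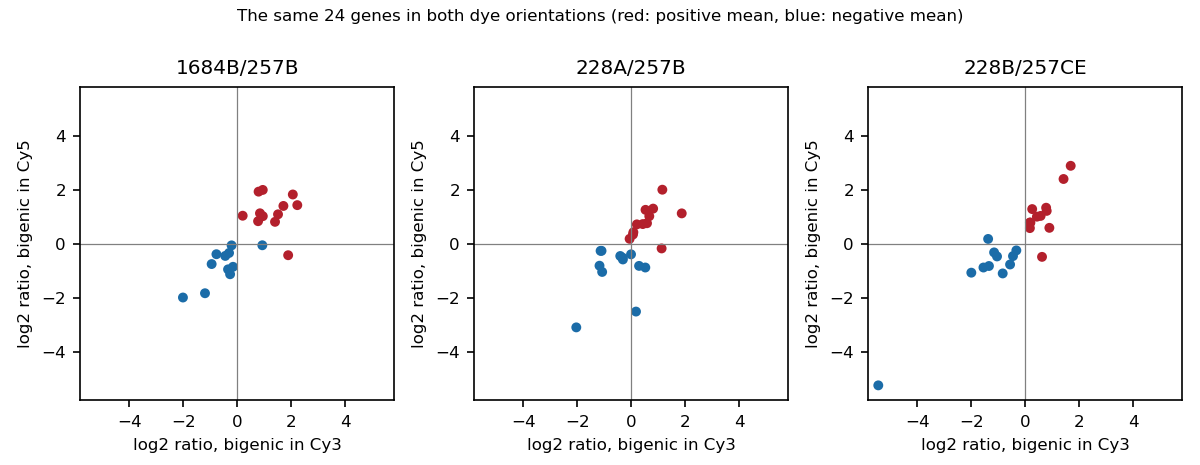
Each panel is 1 pair hybridised in both orientations, with the log2 ratio of the array with the bigenic tumour in Cy3 on the x axis and in Cy5 on the y axis, and the points are the 24 genes of smallest p on either side, red for a positive and blue for a negative mean over all pairs. These genes were chosen on the same arrays, so their signs are a description. Krt13 lies at -5.44 and -5.24 in the panel of 228B/257CE.

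Tgfb1, the ligand gene named by the transgene, was measured on 5 arrays, all in the first range and all with the bigenic tumour in Cy3. Its values were 0.34 on 2145C/2000F, 0.26 on 2145C/2000E, 0.68 on 1762D/2000D, 0.64 on 1995B/2000J and 1.97 on 1961B/2000H. Each lay above 0, and 1961B/2000H stood apart from the other 4. Averaged by bigenic tumour the mean was 0.90 ± 0.73 (SD, n = 4), with an exact two-sided sign-flip permutation p of 0.125, the smallest that 4 tumours allow. Whether its probe reads the transgene is not given in the sources used here.

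Of the TGF-beta pathway list, 25 genes were tested and none passed (limma, 3 unadjusted, all positive). Over all tested genes an unadjusted p under 0.05 was reached by 11.5% (limma), 5.75% positive and 5.73% negative. The unadjusted counts of this list and of those below are to be read against these shares. Of the 25 pathway genes, 15 were positive and 10 negative, with a median of 0.12 against 0.02 over all genes, and the median was 0.03 with a dye term. Of the ligands, Tgfb3 stood at 0.38 ± 0.184 (adjusted p = 0.448). The receptor Tgfbr2 and the signal carriers Smad2, Smad3 and Smad4, named for their role, stood at -0.06 ± 0.131, -0.19 ± 0.127, -0.08 ± 0.188 and 0.20 ± 0.128 (adjusted p = 0.884, 0.596, 0.902 and 0.578, limma). The value of Smad3 lay on the positive side, at 0.020 and 0.0034, with an equal spread of arrays and with quantile normalization. The feedback inhibitors were the members of smallest p.

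Smad7, which blocks the type I receptor, stood at 0.61 ± 0.144 (adjusted p = 0.122, limma) and was positive in 10 of 11 pairs, from -0.01 in 2145C/2000E to 1.63 in 1762D/257B. Skil, which represses Smad complexes, stood at 0.41 ± 0.112 (0.181), positive in 10 of 11. Smad6, the inhibitor linked to the BMP branch, stood at 0.27 ± 0.125 (0.434). None of the 3 inhibitors passed.

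Of genes known to respond to TGF-beta in epithelial cells, 17 of 25 were positive at a median of 0.08, and none passed (limma, 9 positive and 3 negative unadjusted). The list also holds Smad7, Skil and Smad6, given above. In order of p it was led by Plau, then Bhlhe40 at 0.80 ± 0.187 (adjusted p = 0.122), which passed with a dye term at 1.03 ± 0.200 (0.0289), then Smad7 and Tgfbi, a matrix protein named for its induction, at 0.60 ± 0.145 (0.139, limma), positive in 10 of 11. The 3 negative genes were Myc, a growth-promoting transcription factor, at -0.31 ± 0.128 (0.366), Klf10, a zinc finger factor named as TGF-beta inducible, at -0.29 ± 0.123 (0.368), negative in 10 of 11, and Id1, an inhibitor of helix-loop-helix factors, at -0.47 ± 0.213 (0.416, limma). They were named after their values were seen. The mean of the list was positive in 10 of 11 pairs, between -0.03 and 0.37.

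Oxidative and xenobiotic response genes were the list with the most calls. Of 41 tested, 30 were negative and 11 positive, the median was -0.18 against 0.02 over all genes, and 2 passed, Gstm1 and Cyp2s1, both negative (limma, 16 negative and 1 positive unadjusted). The list mean was below 0 in 11 of 11 pairs, from -0.98 in 1762D/257B to -0.12. Aldh3a1 stood at -1.23 ± 0.266 (adjusted p = 0.102, limma) and Gsta2, an alpha-class transferase, at -1.14 ± 0.297 (0.150), negative in 10 of 11. Aldh3a1 lay between -2.56 and -0.79 in the pairs with a 257 tumour and between -1.34 and 0.45 in those with a 2000 tumour, while Gsta2 ran the other way, with its lowest value, -3.78, in 1961B/2000H.

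Keratinocyte differentiation genes lay on the same side without a call. Of 15 suprabasal and cornified envelope genes 13 were negative, at a median of -0.57, with 8 negative at an unadjusted p under 0.05 and none adjusted (limma). Besides Krt13 and Serpinb2 they were led by Alox12b, a lipoxygenase of the water barrier, at -0.98 ± 0.236 (adjusted p = 0.139), and Lor, the cornified envelope protein loricrin, at -0.82 ± 0.228 (0.191, limma). The list mean was negative in 10 of 11 pairs, with 228A/2000E at 0.72 and 1762D/257B at -2.33. Of 22 basal and activated keratinocyte genes 18 were negative, but at a median of -0.07 that was 0.02 with a dye term. Krt6a and Krt17, keratins of activated epidermis, stood at -0.39 ± 0.117 (0.209) and -0.30 ± 0.111 (0.322), and Lamb3 and Dsg2, a laminin chain and a desmosomal cadherin, at 0.66 ± 0.166 (0.141) and 0.40 ± 0.134 (0.272, limma).

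Of 53 cell cycle and DNA replication genes, 45 were negative at a median of -0.22, with 12 negative unadjusted and none passing (limma). Ccnd2, a D-type cyclin, stood at -0.56 ± 0.160 (adjusted p = 0.201), the replication helicase subunit Mcm5 at -0.58 ± 0.183 (0.233), Cks1b, a cyclin-dependent kinase subunit, at -0.56 ± 0.191 (0.303), and the mitotic kinase Plk1 at -0.50 ± 0.182 (0.322, limma). The list mean was negative in 7 of 11 pairs, and -1.10, -0.72 and -0.70 in 1762D/257B, 1961B/2000H and 1762D/2000D. In 228A/2000E the list mean of 0.12 includes Kif11 at 7.11, far from its values in the other pairs. The positive side of that pair leans on this value. In the 3 pairs with both orientations the list median was -0.0012.

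Of 26 ribosomal protein genes 24 were negative, at a median of -0.29, none passing (limma, 3 negative unadjusted), led by Rpl35a at -0.35 ± 0.147 (adjusted p = 0.371), Rpl6 at -0.38 ± 0.175 (0.426) and Rps23 at -0.39 ± 0.184 (0.433). The list mean was low in 5 pairs and above 0 in 6. It lay between -1.31 and -0.50 in 4 pairs of the first range and at 0.21 in 2145C/2000E, the other pair of that range. It was -1.15 in 1762D/257B, of the third range, and between 0.05 and 0.24 in the other 5 pairs. A difference between ranges was not tested. With a dye term the median was -0.06, and in the 3 pairs with both orientations it was 0.13, on the other side.

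Most immune and protease genes lay on the positive side. Of 43 cytokines, chemokines and receptors 36 were positive at a median of 0.24, none passing (limma, 9 positive and 3 negative unadjusted). Besides Ccl8 they were led by Cx3cl1, a membrane-bound chemokine, at 0.53 ± 0.121 (adjusted p = 0.117), Ccl27a, a chemokine of keratinocytes, at 0.51 ± 0.149 (0.207), and Csf1, a growth factor of macrophages, at 0.42 ± 0.132 (0.241, limma). The 3 negative ones were Ccl2 at -0.62 ± 0.201 (0.251), Tnfrsf1a at -0.38 ± 0.133 (0.306) and Il18 at -0.47 ± 0.184 (0.350, limma). These 3 were named after their values were seen. The list mean lay above 0 in 10 of 11 pairs and averaged 0.37 in pairs with a 257 tumour and 0.09 in those with a 2000 tumour. In 228B/257CE the list mean of 0.22 leans on Cxcl9 at 7.21, a value that also enters the average of the 257 pairs.

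Of 31 interferon-induced genes 27 were positive at a median of 0.14, none passing (limma, 6 unadjusted), with the list mean positive in 10 of 11 pairs. Irf1 stood at 0.51 ± 0.114 (adjusted p = 0.109), Ifi203, a DNA-binding interferon-inducible protein, at 0.52 ± 0.129 (0.141), Usp18, which removes ISG15, at 0.57 ± 0.165 (0.208), and the ubiquitin ligase Trim21 at 0.38 ± 0.117 (0.231, limma), of which the 2 probes read 0.77 and 0.13. Of 17 antigen presentation genes 13 were positive at a median of 0.16. B2m, the light chain of class I molecules, stood at 0.68 ± 0.270 (0.351, limma) and ranged from -1.19 in 1762D/257B to 2.98 in 228A/2000E.

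Of 25 matrix proteases and inhibitors 20 were positive at a median of 0.23, none passing (limma, 7 positive and 1 negative unadjusted). The 1 negative was Serpinb2, opposite in side to its target Plau. Mmp9, a gelatinase of neutrophils and invading epithelium, stood at 1.28 ± 0.280 (adjusted p = 0.102), positive in 10 of 11 pairs, with 3.04 in 228A/2000E, 2.55 in 1684B/257B and 2.34 in 228B/257CE and a median of 0.76. Mmp12, the macrophage elastase, stood at 0.49 ± 0.143 (0.207, limma). Matrix proteins themselves were divided, with 16 of 34 positive and a median of -0.04 that was 0.0087 when arrays were not centred and 0.03 with a dye term.

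Macrophage, neutrophil, skeletal muscle, mast cell, hair follicle and endothelial markers had positive medians in these pairs and with a dye term. Markers of several other cell types changed side or were divided. The part of any of them in the groups above was not tested. Of 24 macrophage markers 22 were positive at a median of 0.21, with list means from -0.61 in 1762D/257B to 0.79 in 1684B/257B, and 0 passed (limma, 5 unadjusted). They were led by Chil3, a chitinase-like protein, at 0.86 ± 0.258 (adjusted p = 0.209), the oxidase subunit Cyba at 0.43 ± 0.159 (0.325), the scavenger receptor Marco at 0.33 ± 0.137 (0.368) and the complement gene C1qb at 0.28 ± 0.126 (0.412, limma). Of 12 neutrophil markers 9 were positive at a median of 0.22, with list means from -0.55 to 0.85, negative in 4 of 11 pairs. The list mean averaged -0.09 in pairs with a 2000 tumour and 0.42 in those with a 257 tumour. No neutrophil marker passed (limma, 2 positive and 1 negative unadjusted). Besides Mmp9, given above, these were Ly6c1, a surface antigen of monocytes and endothelium, at -0.83 ± 0.291 (adjusted p = 0.311), negative in 9 of 11 pairs, and Lcn2, an iron-binding lipocalin, at 0.51 ± 0.210 (0.364, limma). Of 25 lymphocyte markers 21 were positive at a median of 0.14, but with a dye term 7 of 20 were, at a median of -0.07, and none passed (limma, 2 positive and 1 negative unadjusted). Gzma, a granzyme of cytotoxic cells, was positive in 9 of 9 pairs at 0.39 ± 0.121 (adjusted p = 0.233), and Ly6d, an antigen of early B cells and of keratinocytes, negative in 9 of 11 at -0.37 ± 0.136 (0.328, limma).

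Of 36 skeletal muscle markers 31 were positive at a median of 0.25, none passing (limma, 10 positive unadjusted), and their list mean ran from -0.08 in 228A/2000E to 0.82 in 1684B/257B. Mybph, a myosin-binding protein, stood at 0.40 ± 0.126 (adjusted p = 0.233), the muscle creatine kinase Ckm at 0.58 ± 0.188 (0.251), the calcium pump Atp2a1 at 0.51 ± 0.201 (0.353) and the light chain Mylpf at 0.62 ± 0.248 (0.356, limma). Of 13 hair follicle and sebaceous genes 12 were positive at a median of 0.14, led by Sox9, a stem cell transcription factor, at 0.54 ± 0.170 (0.245, limma). The list mean of the hair follicle genes was negative in 4 of 11 pairs. Their median was -0.08 in the 3 pairs with both orientations. Of 18 adipocyte markers 14 were positive at a median of 0.14 (-0.05 with a dye term), among them Dgat1 at 0.44 ± 0.135 (0.231), Lpl at 0.42 ± 0.164 (0.350) and Adipoq at 0.30 ± 0.123 (0.366), while Fabp4, in the same list, lay on the other side (limma). The list mean of the adipocyte markers was negative in 6 of 11 pairs.

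The smaller lists were divided. All 6 mast cell markers were positive, at a median of 0.28, but their list mean was negative in 7 of 11 pairs, and the median reached -0.018 with 1 tumour left out. Of 13 fibroblast markers 7 were positive at a median of 0.02, which was -0.06 with a dye term, -0.03 with an equal spread of arrays and -0.02 with quantile normalization. Of 16 endothelial markers 10 were positive at a median of 0.04, with the list mean negative in 7 of 11 pairs and the median -0.02 with the bigenic tumour in Cy3 only. Of 6 erythroid markers 3 were positive, with the list mean negative in 9 of 11 pairs. Their median was -0.0024, and it was -0.37 with a dye term, -0.55 in the 3 pairs with both orientations and 0.04 when arrays were not centred. Of 4 Schwann cell and melanocyte markers 2 were positive at a median of 0.05, which was -0.21 with a dye term. The erythroid gene Alas2, of heme synthesis, stood at -0.59 ± 0.212 (adjusted p = 0.316, limma), and Tfrc, the transferrin receptor, at -0.94 ± 0.251 (0.165, limma), with 1762D/257B at -3.58.

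**Figure D4:**
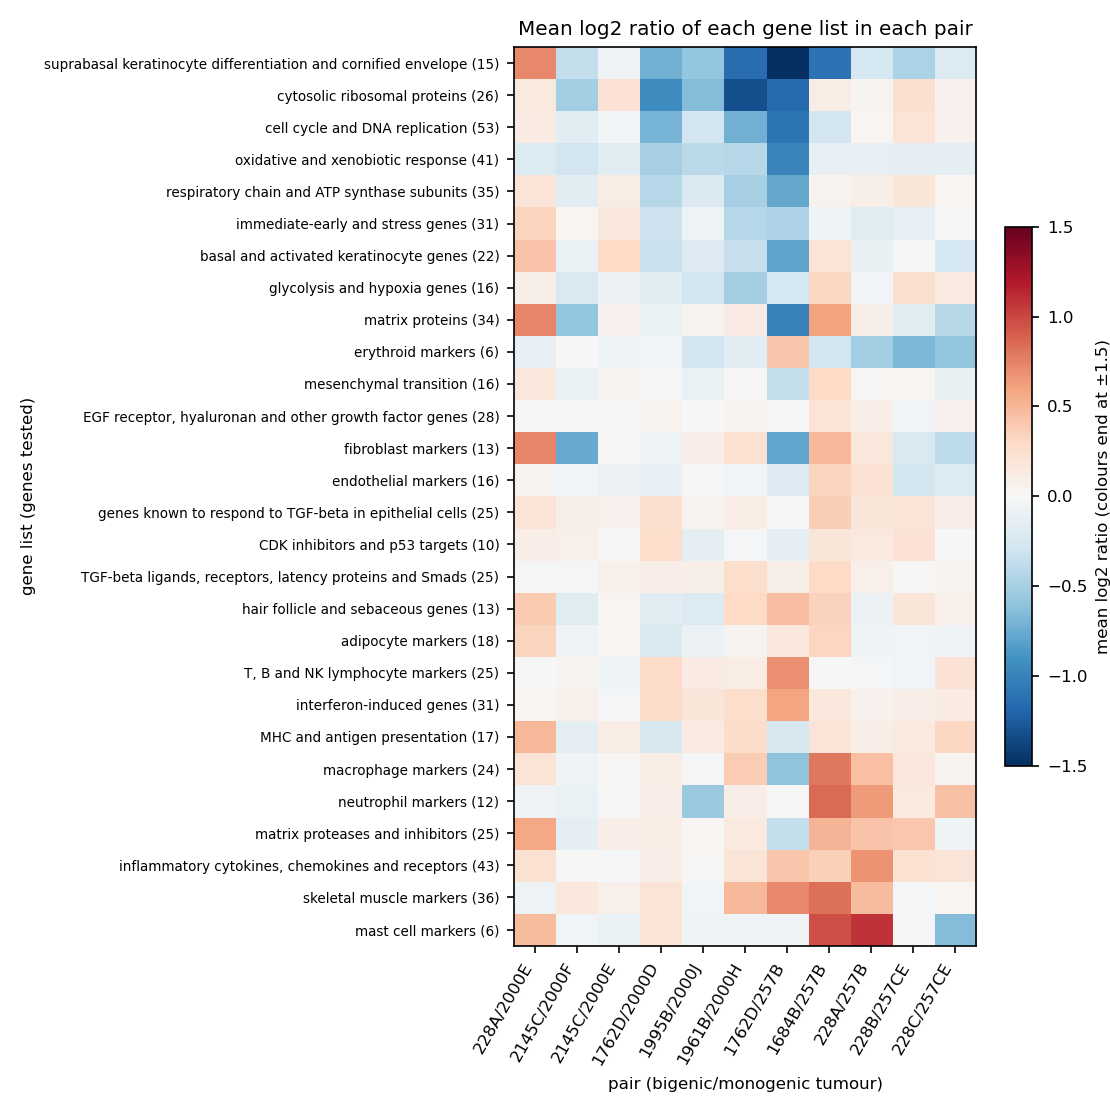
Rows are gene lists with the number of genes tested, columns are the 11 pairs with those of a 2000 tumour first, and the colour is the mean log2 ratio of the list in that pair, with colours ending at ±1.5. The oxidative and xenobiotic row is below 0 in all 11 columns, and the column of 1762D/257B holds the lowest suprabasal mean, -2.33.

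In the remaining lists no gene passed either (limma). Of 31 immediate-early and stress genes 18 were negative, with a median of -0.08 (limma, 2 positive and 6 negative unadjusted). Nr4a1, an orphan nuclear receptor, stood at -0.78 ± 0.196 (adjusted p = 0.141, limma). The chaperone Hspa5 stood at -0.77 ± 0.205 (0.165), and both lay opposite to Gem in the same list. Of 35 respiratory chain genes 24 were negative, with a median of -0.11 that was 0.04 with a dye term. Of 16 glycolysis and hypoxia genes 10 were negative, with a median of -0.04 (0.0040 when arrays were not centred and 0.08 with a dye term), with Ndrg1 on the positive side. CDK inhibitors and p53 targets had 8 of 10 positive at 0.09, with Ccng1, a p53-induced cyclin, on the other side at -0.43 ± 0.157 (adjusted p = 0.322, limma). Mesenchymal transition genes had 9 of 16 positive at 0.01, which was -0.02 with the bigenic tumour in Cy3 only, and growth factor genes 16 of 28 at 0.01.

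The number of the monogenic tumour was examined next, since 6 pairs used a 2000 and 5 a 257 tumour. No gene of 6445 differed at an adjusted p of 0.05 between the 2 sets (0, or 0%, limma, with 591 unadjusted, 9.17%). Saa3, an acute-phase protein, lay at 1.49 in 257 pairs and -0.07 in 2000 pairs, a difference of 1.56 ± 0.281 (SE, adjusted p = 0.202), and Ccl28, an epithelial chemokine, at 2.93 and -1.49, a difference of 4.42 ± 0.848 (0.205). Aldh3a1 lay at -1.99 and -0.34, a difference of -1.65 ± 0.333 (0.205, limma). Because nearly all 2000 pairs lie in the first range, monogenic number and range cannot be told apart here.

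Whole profiles of pairs resembled each other little. Across 5005 genes measured in all 11 pairs, Pearson's r had a median of 0.13 for the 3 combinations that share a bigenic tumour, 0.09 for the 5 that share a monogenic tumour and 0.05 for the 47 that share none. These r are across genes, which are not independent. The exception was a block of 4 pairs of the first range, 2145C/2000F, 1762D/2000D, 1995B/2000J and 1961B/2000H, at r = 0.30 to 0.56, which share no tumour. Pair 1762D/257B, from another range, correlated with them at 0.28 to 0.47, and 2145C/2000E, from the same range, at 0.02 to 0.13.

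**Figure D5:**
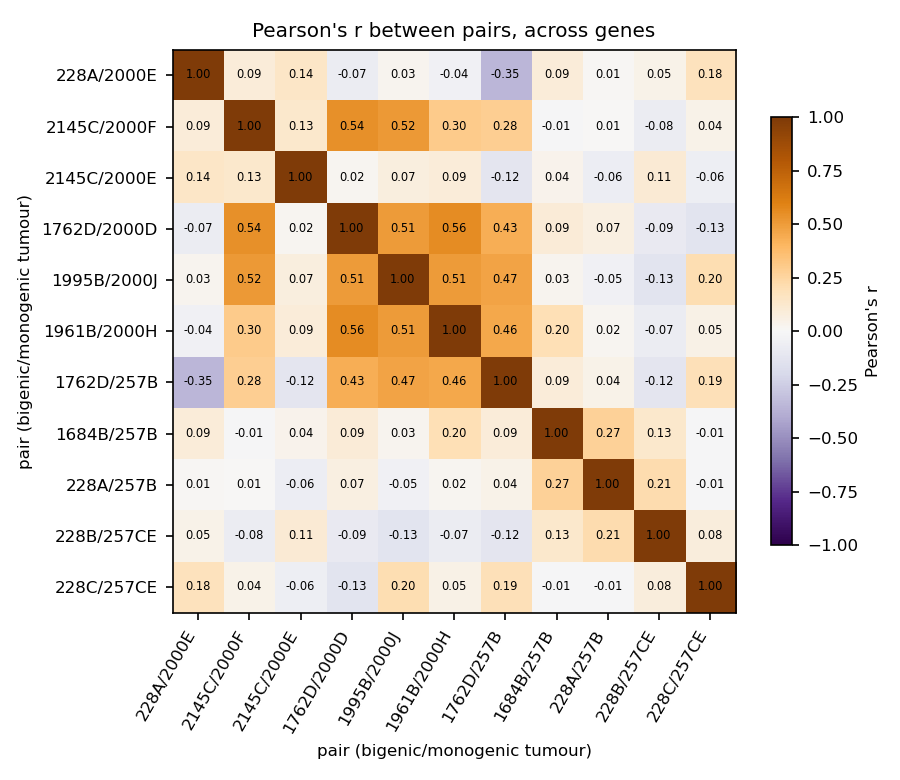
Rows and columns are the 11 pairs, with those of a 2000 tumour first, and each cell is Pearson's r across 5005 genes. The block of 2145C/2000F, 1762D/2000D, 1995B/2000J and 1961B/2000H with 1762D/257B holds every r of 0.28 or more outside the diagonal, and 228A/2000E against 1762D/257B is the lowest cell, at -0.35.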

How the data were processed

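RNA of 1 bigenic and 1 monogenic papilloma was hybridised to each 2-colour array. The authors deposited 1 signed ratio per probe and array, taken here as log2, with the log base, the numerator and the normalization not given in the sources used here. Of 9596 probes, 7486 had 1 gene symbol and were named, and probes of a gene were averaged. Arrays were turned the same way by their dye labels, centred on the median and averaged to 11 pairs. Genes with at least 8 pairs were fitted with limma 3.58.1 (R 4.3.3) as a mean over pairs weighted by their arrays, with eBayes moderation and Benjamini-Hochberg adjustment, at a threshold of 0.05. The fits share tumours between pairs. Further fits added a dye term over arrays (with a correlation of 0.0095 between arrays of a pair) and the number of the monogenic tumour. Alternatives covered scaling, weights, filters, replicate units, ranges and left-out tumours.

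Named genes were the 12 of smallest p on each side, up to 6 each way past the threshold with a dye term, up to 4 of each list, the 6 of largest ratio each way with 1 sign in at least 9 pairs, up to 4 each way by monogenic number, and Tgfb1. These genes, the 29 lists and the comparisons were chosen with earlier results of these data known. On simulated data for 6490 genes over 11 pairs, 41.8% of genes changed by 0.5, 91.0% by 1 and 100% by 2 (log2) were recovered, with 7 false among 162 calls. The simulated noise was independent between arrays and genes, with 1 SD per gene. It held no tumours shared between pairs and no difference in spread between arrays. These shares are therefore not the recovery or error rate of the real pairs.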

Additional observations from a re-analysis of the deposited data

Results flagged for a closer look

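In 22 groups of 4 to 10 values, 6 held a value far from the others by Dixon's test. For independent normal values of equal spread, chance gives about 1 in 20 groups. The pairs share tumours and the arrays differ in spread, so the 6 cannot be read as an excess over chance. Groups of more than 10 values were not tested, which left out genes measured in every pair unless split by monogenic number. Tgfb1 stood at 1.97 on papilloma 14 (1961B/2000H), far above its other 4 arrays. Over pairs, Ndrg1 stood at 1.94 in 1684B/257B, Usp18 at 1.96 in 1762D/257B and Adipoq at 1.27 in 1762D/257B. Prss12 stood at 0.96 in 1961B/2000H, above the other pairs with a 2000 tumour, and at 0.48 in 228B/257CE, below the other pairs with a 257 tumour.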

How the results depend on the processing

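No paired analysis was possible because the pairing is already in each ratio, which sets a bigenic against a monogenic tumour on 1 array, so no 2 groups of samples remain to block by replicate number. Of the alternatives listed here, leaving out array papilloma 7 was chosen after seeing the data. The 5 genes past the threshold over pairs (limma) became 40 with an equal spread of arrays, 41 with quantile normalization, 13 when arrays were not centred, 10 without array papilloma 2, 12 without array papilloma 7, 147 with array quality weights, 22 and 37 with monogenic tumour and range of experiment numbers as random blocks, and 10 without the arrays of the second range. All 5 were among the calls in each of these. There were 3 calls with trimmed mean centring, with robust eBayes, for genes in at least 5 pairs, for each probe on its own and with the bigenic tumour as a random block, 4 without weights, and 6 for genes in all 11 pairs. With the bigenic tumour in Cy3 only there were 8 calls, 2 of them shared, and without the arrays of the third range 3, none shared. There were 0 calls in the 3 pairs with both orientations (limma, 750 unadjusted), with the bigenic tumour, the number in its name or the linked group as the replicate (763, 1017 and 958 unadjusted), and without the arrays of the first range (330 unadjusted). Leaving out 1 tumour gave 0 to 6 calls. Fewer samples are part of the construction of these fits, and the cause was not tested otherwise.

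With an equal spread of arrays and with quantile normalization, the 15 calls with a dye term became 61 and 47, the 0 for a dye effect 66 and 26, and the 0 by monogenic number 16 and 14. Without array papilloma 2 the dye effect had 3 calls, and without array papilloma 7 the dye-term fit had 8. Of 89 named genes with 2039 values under alternatives, 1875 kept side and call, 65 lost and 86 gained a call, and 13 changed side, the cause of which was not tested. In the 3 pairs with both orientations Rpl6, Rps23 and Smad2 were each at 0.10, Smad6 at -0.067 and Tgfbr2 at 0.47. Smad3 turned to 0.020 with an equal spread, 0.0034 with quantile normalization and 0.10 without array papilloma 7. With 1 tumour left out, Smad3 ranged from -0.17 to 0.33, Tgfbr2 from -0.19 to 0.0060 and Ccl28 from -0.79 to 1.62. Signal over background was not in the values used here, so dim probes were not filtered.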

Other observations

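Some genes ranged far more widely between pairs than others, against a median SD over pairs of 0.48 on the log2 scale. Ltf, the iron-binding lactoferrin of neutrophils and glands, ran from -4.01 in 228A/2000E to 4.10 in 228A/257B, so the same bigenic tumour stood at both ends, against different monogenic tumours. Ccl28 ran with Ltf (r = 0.99 over 9 pairs), as did the neutrophil-attracting chemokine Cxcl5 (0.93 over 10) and the platelet chemokine gene Ppbp (0.91 over 10). These genes were singled out after their values were seen, and the r are descriptions of pairs that share tumours.

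Single arrays held very large ratios. In 228A/257B desmin (Des) stood at 7.64, the motor of the spindle Kif11 stood at 7.11 in 228A/2000E, and the chemokine Cxcl9 at 7.21 in 228B/257CE, each with no like value in another pair. Des was not alone in 228A/257B, where Ubr1 stood at 7.64, Rad51d and Slc22a8 at 7.62 and Dnmt3b at 7.61, while Slc2a2 stood at -9.32. The cause was not tested. Of 1986 probes without a single gene symbol 0 passed (limma, 185 unadjusted).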
